A study of Homo sapiens with 12 samples.

Results

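The genes described here encode the ephrins and Eph receptors, the semaphorins with their plexin and neuropilin receptors, and the SLIT ligands with their ROBO receptors. They were taken by name from the protein-coding genes of the deposited tables, which gave 60 of 58174 genes: 8 ephrins, 14 Eph receptors, 20 semaphorins, 9 plexins, 2 neuropilins, 3 SLIT and 4 ROBO genes on 17 chromosomes. RNA came from LN229 and U251, both established human glioblastoma cell lines, 72 hours after reverse transfection with siRNA against XRN2, with a control siRNA or without siRNA (mock). The 12 libraries form 6 groups of 2: LN229 with XRN2 siRNA, LN229 with control siRNA, LN229 mock, U251 with XRN2 siRNA, U251 with control siRNA and U251 mock. XRN2 encodes a nuclear exoribonuclease known to remove the downstream RNA that is left when a transcript has been cut at its poly(A) site. LN229 was grown in DMEM and U251 in EMEM with a larger share of serum, so line and medium cannot be told apart. The labels do not say whether the libraries of a group came from separate cultures. The p-values therefore cover no more than the spread between libraries, and that spread may be technical.

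Guidance cues steer growing axons and migrating cells, and the same families act in vessel growth and in the movement of tumour cells. Ephrins are ligands held at the cell surface, by a lipid anchor in the A class and by a transmembrane segment in the B class. They bind Eph receptor tyrosine kinases on neighbouring cells. The semaphorins named SEMA3 are secreted and mostly bind a neuropilin that is coupled to a plexin. The other human semaphorins mostly stay at the membrane, and plexins carry a domain that inactivates small GTPases. SLIT proteins are secreted ligands of the ROBO receptors and were first studied as repellents of axons at the midline. EPHA2 and EPHA3 are known as receptors that are abundant in many glioblastomas.

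The libraries held 4846768 to 7469052 exon reads each. The 60 guidance genes took 0.234% to 0.317% of them in LN229 and 0.431% to 0.485% in U251. A count of 0 allows up to 3 reads, or 0.381 to 0.605 CPM (counts scaled to a common exon read total after TMM scaling) per library, which covers counting error only. XRN2 itself was at 29.6 ± 5.6 CPM (SD, n = 2) with XRN2 siRNA against 222 ± 29 with control siRNA and 232 ± 4.16 in mock in LN229. In U251 it was at 28.6 ± 3.45 CPM with XRN2 siRNA against 139 ± 6.96 with control siRNA and 140.5 ± 3.56 in mock. All 7 glial and glioma markers checked were at or above 1 CPM in LN229, while OLIG2 had at most 3 reads over the U251 libraries. GFAP was at 1.05 to 4.31 CPM in LN229, against 2351 to 6903 CPM in U251, while S100B was at 294 to 569 CPM in LN229, against 14.9 to 22 CPM in U251. The fibroblast marker COL1A1 was at 280.4 to 406 CPM in LN229, against 2.97 to 7.16 CPM in U251. Of the endothelial markers, none passed 4.56 CPM in LN229 or 4.39 CPM in U251, and of 5 blood cell markers PTPRC, CD3E, CD14 and HBB did not pass 0.8 CPM in either line. The macrophage marker CD68 was at 1.4 to 9.68 CPM in LN229, against 47.4 to 69.7 CPM in U251. What part these differences have in the line difference of the guidance genes was not tested. Both a control siRNA and a mock library stood apart from their replicates. LN229 control siRNA replicate 1 had 5.58% of its gene reads in introns against 8.78% in replicate 2. Long transcripts were low in it (Spearman −0.524 between the log ratio of the replicates and exon length across 13412 genes, which are not independent replicates). U251 mock replicate 2 had the largest distance from its replicate, with a mean chi-square of 26.1 per gene. The LN229 control siRNA pair had 18.7 and the LN229 XRN2 siRNA pair 7.51, where the remaining pairs had 1.74 to 2.58. Of 38 guidance genes with a mean of at least 5 CPM, 28 were lower in LN229 control siRNA replicate 1 than in its replicate (median log2 ratio −0.25, against 0 over all genes tested). In U251 mock replicate 2, 26 were lower (median −0.11, against −0.02).

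Of the 60 genes, 49 had enough reads to be tested. The other 11 were EFNA2, EPHA1, EPHA6, EPHA7, EPHA8, EPHA10, EPHB6, PLXNA4, ROBO2, ROBO4 and SLIT1, whose highest value in any library was 1.45 CPM; EPHA7, EPHA10 and ROBO2 had no read in any library. On the scale of the authors' deposited TPM, which divides by exon length and so allows genes to be set side by side, 43 genes exceeded 1 TPM in the control libraries of LN229 and 40 in those of U251, with 38 in both. The receptor tyrosine kinase gene EPHA2 led in LN229 at 151 ± 24.6 TPM (SD over 4 control libraries), followed by the secreted semaphorin SEMA3C at 149.8 ± 40.9 and the plexin PLXNB2 at 133 ± 19.2 TPM; these levels lie within each other's spread. In U251 the neuropilin NRP2 led at 384 ± 9.23 TPM, well above EPHA2 at 201 ± 48.3 and EPHA3 at 199 ± 9.63 TPM, which do not differ beyond their spread. NRP2 made 49.2% of the neuropilin TPM in LN229, where NRP1 and NRP2 were level, and 74.4% in U251. Summed over each family, the neuropilins stood at 151 ± 32.7 TPM in LN229 against 517 ± 28.3 TPM in U251, and the SLIT genes at 13.8 ± 3.72 against 67.3 ± 3.64 TPM. The Eph receptors stood at 309.9 ± 42.1 against 524 ± 56.2 TPM and the ROBO genes at 70.8 ± 15 against 43.5 ± 2.67 TPM. The sums of the ephrins (129 ± 10.3 against 169.6 ± 19.8 TPM), semaphorins (462 ± 56.8 against 437 ± 31 TPM) and plexins (331 ± 51.4 against 382 ± 41.7 TPM) were closer. Of these, the ephrin sums did not overlap between the lines' control libraries.

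**Figure D1:**
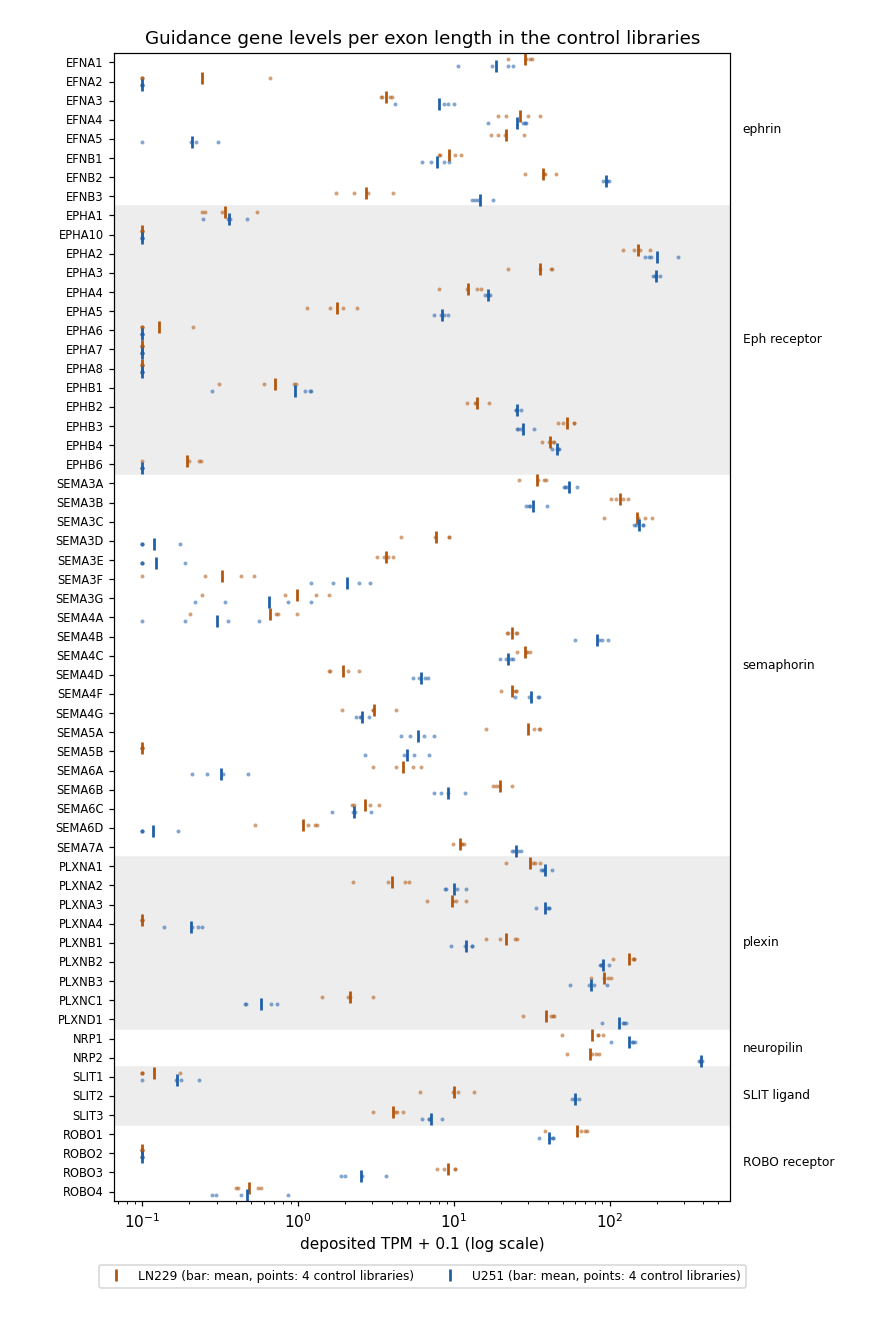
Deposited TPM plus 0.1 (log axis) of the 60 guidance genes in the 4 control libraries of LN229 and of U251; points are libraries, bars are means and grey bands separate the families. NRP2 lies at 74.5 TPM in LN229 against 384.5 TPM in U251, and SEMA5B lies at 0 TPM in every LN229 library, against 4.88 TPM in U251.

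The lines differed in most of the tested guidance genes. Over the mock and control siRNA libraries, LN229 was higher than U251 in 16 of the 49 and lower in 24 (edgeR's quasi-likelihood test, adjusted p under 0.05). These are 40 in all, on a background of 67.0% of all 14232 genes tested (34.9% higher, 32.1% lower). The control libraries of the lines did not overlap for 14 genes on the higher and 24 on the lower side, where 60.0% of all genes did not overlap either way. The median log2 fold change of LN229 over U251 was −0.30 over the 49 genes and 0.03 over all genes tested. By family, 6 of 8 tested Eph receptors were lower in LN229 and 1 was higher. Of 7 ephrins 2 were higher and 3 lower, of 20 semaphorins 8 were higher and 7 lower, and of 8 plexins 3 were higher and 4 lower. Both neuropilins and both tested SLIT genes were lower in LN229, and both tested ROBO genes were higher. Genes that were read almost only in one line passed the filter on low counts through that line, so these counts describe the tested genes and not all 60. In bulk RNA, fewer cells that express a gene and less RNA of it per cell cannot be told apart.

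**Figure D2:**
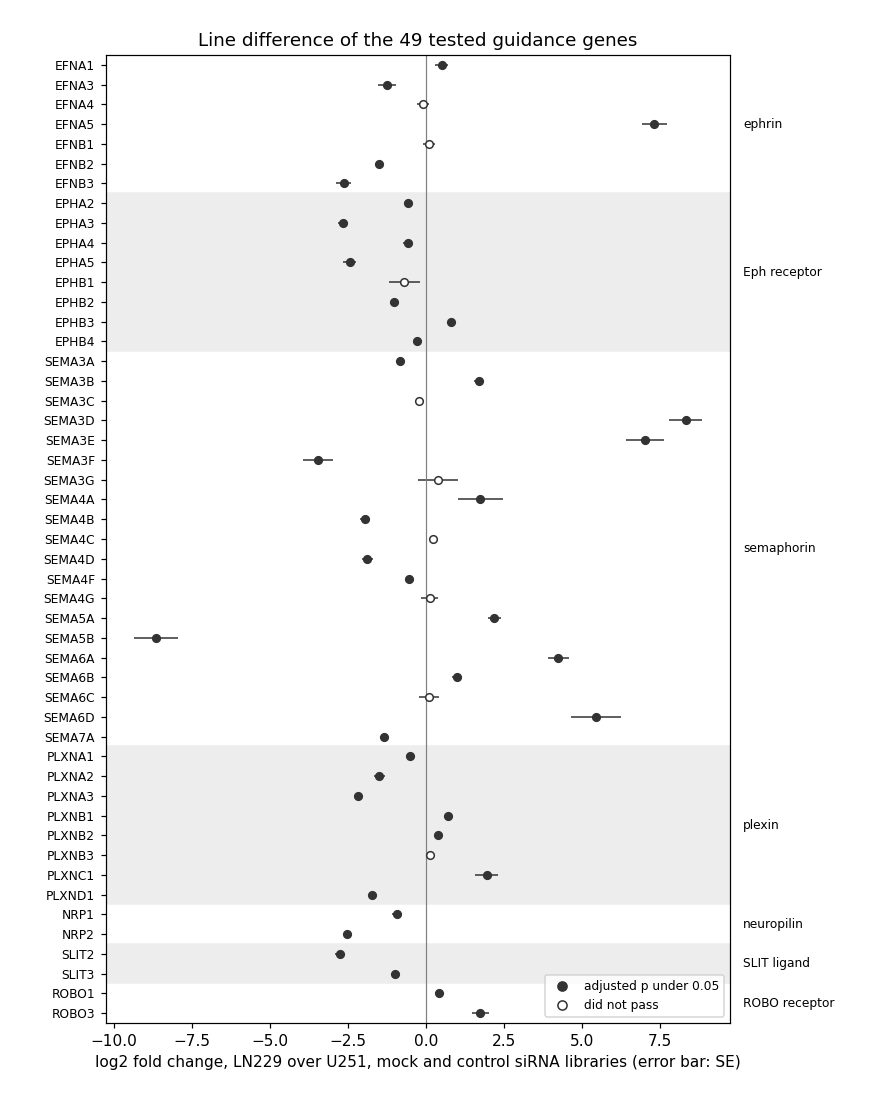
Fitted log2 fold change of LN229 over U251 in the control libraries for the 49 tested guidance genes, with SE as error bar; filled points passed the test. EFNA5 (7.32) and SEMA3D (8.33) lie far to the right and SEMA5B far to the left, while all tested SLIT and neuropilin genes lie left of 0.

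Among the ephrins, EFNA5, which encodes a ligand with a lipid anchor, was close to a gene of one line (ENSG00000184349; chromosome 5, 107376889 to 107670895, minus strand, in GRCh38 coordinates). EFNA5 stood at 44.8 and 23.4 CPM with control siRNA and 28.6 and 26.1 CPM in mock in LN229. The U251 libraries had 0.318 and 0 CPM with control siRNA and 0.191 and 0.161 CPM in mock. All LN229 libraries lie far above all U251 libraries. Over the 4 control libraries there were 746 reads in LN229 and 4 in U251, a ratio of 174 in CPM (95% counting interval 67.8 to 641). Its fitted log2 fold change was 7.32 (SE 0.40, adjusted p = 8.73e-09), a value that depends on the prior count since U251 has so few reads. The transmembrane ligands EFNB2 and EFNB3 were lower in LN229. EFNB2 (ENSG00000125266; chromosome 13, 106489731 to 106535114, minus strand), the partner of EPHB4 between arterial and venous endothelium, had 35.5 and 48 CPM with control siRNA and 40.8 and 40.2 CPM in mock in LN229. In U251 there were 115 and 124 CPM with control siRNA and 119 and 109 CPM in mock. The lines do not overlap, and the log2 fold change was −1.50 (SE 0.11, adjusted p = 6.04e-08). EFNB3 (ENSG00000108947; chromosome 17, 7705202 to 7711378, plus strand) had 2.42 and 1.68 CPM with control siRNA and 3.04 and 1.27 CPM in mock in LN229. U251 had 11.9 and 15.9 CPM with control siRNA and 12.6 and 11.3 CPM in mock, again without overlap, with a fitted log2 fold change of −2.63 (SE 0.24, adjusted p = 6.24e-07). EFNB1 and EFNA4 did not pass the test, at 7.57 ± 0.964 CPM in LN229 against 7.04 ± 1.33 CPM in U251 and 8.46 ± 3.06 CPM in LN229 against 8.84 ± 2.14 CPM in U251 (SD over 4 control libraries). Only 37.6% of the exon reads of EFNA4 were unique, so part of its count may belong to other genes. EFNA1 passed narrowly, at 0.51 (adjusted p = 0.044), and lost the call when any 1 of 8 libraries was left out: LN229 mock replicate 1, U251 mock replicate 2, either control siRNA library of a line or either U251 XRN2 siRNA library. The ligand gene EFNA3, with 62.1% unique reads, was lower in LN229 at −1.25. EFNA4, EFNA3 and EFNA1 lie next to each other on chromosome 1 with gaps of 9.32 kb and 39.9 kb.

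Most Eph receptors were lower in LN229, and EPHA3 (ENSG00000044524; chromosome 3, 89107524 to 89482134, plus strand) was the receptor with the largest difference. EPHA3 stood at 40.9 and 57.3 CPM with control siRNA and 67.5 and 66.6 CPM in mock in LN229. Its U251 values were 345 and 364 CPM with control siRNA and 364 and 382 CPM in mock. Every U251 value is far above the highest LN229 value, and the log2 fold change was −2.66 (SE 0.16, adjusted p = 7.17e-09). EPHA5 (ENSG00000145242; chromosome 4, 65319563 to 65670495, minus strand), a receptor best known from the developing brain, had 2.82 and 5.39 CPM with control siRNA and 3.52 and 4.31 CPM in mock in LN229. The values in U251 were 21.8 and 24.8 CPM with control siRNA and 23.3 and 19.4 CPM in mock, also without overlap, with a fitted log2 fold change of −2.45 (SE 0.20, adjusted p = 2.09e-07). EPHA2 (ENSG00000142627; chromosome 1, 16124337 to 16156087, minus strand), the Eph receptor with the highest mean TPM in both lines, had 141 and 143 CPM with control siRNA and 179 and 156 CPM in mock in LN229. U251 libraries stood at 202 and 214 CPM with control siRNA and 194 and 306 CPM in mock. The groups do not overlap, but U251 mock replicate 2 stands well above the other U251 libraries; the log2 fold change was −0.57 (SE 0.13, adjusted p = 0.00197). EPHA4, EPHB2 and EPHB4 were lower in LN229 too, at −0.59, −1.02 and −0.30. EPHB4 overlaps SLC12A9 on the opposite strand (mean of 302 exon reads a library), so part of its count may belong to that gene. EPHB3 (ENSG00000182580; chromosome 3, 184561784 to 184582409, plus strand) was the receptor that was higher in LN229, where it had 58.3 and 63.7 CPM with control siRNA and 54.2 and 63.3 CPM in mock. The U251 libraries had 33.3 and 41 CPM with control siRNA and 32.3 and 31 CPM in mock. The lines do not overlap, and the log2 fold change was 0.81 (SE 0.11, adjusted p = 2.08e-05). EPHB1 did not pass the test and stayed at or under 2.1 CPM in every library.

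The semaphorins held the genes that were closest to absent in one line. SEMA3D (ENSG00000153993; chromosome 7, 84995553 to 85186855, minus strand), a secreted semaphorin, had 10.1 and 17.7 CPM with control siRNA and 17.8 and 14.3 CPM in mock in LN229. In U251 there were 0 and 0 CPM with control siRNA and 0 and 0.161 CPM in mock. The 4 control libraries held 379 reads in LN229 and 1 in U251, a ratio of 354 in CPM with a wide counting interval (63.2 to 14026). The fitted log2 fold change was 8.33 (SE 0.52, adjusted p = 3.28e-08). With 1 read in U251 this value depends on the prior count, and its SE is much narrower than the counting interval. SEMA3E (ENSG00000170381; chromosome 7, 83363906 to 83649010, minus strand), which binds PLXND1 without a neuropilin, had 148 reads in LN229 and 1 in U251, a ratio of 138 (24.4 to 5499). In LN229 it stood at 7.46 and 5.05 CPM with control siRNA and 5.92 and 5.58 CPM in mock, while the U251 control libraries lay between 0 and 0.159 CPM, and the fitted value was 7.03 (SE 0.61, adjusted p = 1.36e-06). SEMA6D (ENSG00000137872; chromosome 15, 47184101 to 47774223, plus strand), a transmembrane semaphorin and ligand of PLXNA1, was low but again read almost only in LN229, with 52 reads against 1 (ratio 48.6, interval 8.35 to 1956). Its LN229 values were 1.01 and 2.53 CPM with control siRNA and 2.4 and 2.16 CPM in mock, and the fitted log2 fold change was 5.46 (SE 0.79, adjusted p = 6.14e-05). SEMA5B (ENSG00000082684; chromosome 3, 122909193 to 123028605, minus strand) showed the opposite pattern. It had no read in the LN229 control libraries and 193 in those of U251, which puts LN229 at least 68.8-fold lower, taking 3 reads over the 4 libraries as the floor. All 6 LN229 libraries were at 0, and U251 stood at 11.1 and 11.5 CPM with XRN2 siRNA, 7.96 and 11.8 CPM with control siRNA and 9.36 and 4.36 CPM in mock. SEMA3C, SEMA3E, SEMA3A and SEMA3D follow each other on chromosome 7, with SEMA3E, SEMA3A and SEMA3D within gaps of 306.8 kb and 503 kb. SEMA3A, between the genes that were read in LN229, was lower in LN229 at −0.83, and SEMA3C did not pass the test at −0.22.

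The other semaphorins were read in both lines. SEMA3B (ENSG00000012171; chromosome 3, 50267558 to 50277546, plus strand), a secreted semaphorin known as a candidate tumour suppressor in lung, was the most abundant of those higher in LN229. SEMA3B stood at 209 and 142 CPM with control siRNA and 166 and 151 CPM in mock in LN229. U251 had 45.5 and 63.6 CPM with control siRNA and 48.9 and 46.8 CPM in mock. The lines do not overlap, and the log2 fold change was 1.71 (SE 0.16, adjusted p = 9.19e-07). SEMA6A (ENSG00000092421; chromosome 5, 116443616 to 116574934, minus strand), a ligand of PLXNA2 and PLXNA4, had 8.88 and 15.8 CPM with control siRNA and 10.9 and 14 CPM in mock in LN229. Its U251 values were 0.478 and 0.705 CPM with control siRNA and 1.15 and 0.323 CPM in mock, with a fitted log2 fold change of 4.24 (SE 0.34, adjusted p = 1.48e-07). SEMA5A (ENSG00000112902; chromosome 5, 9035026 to 9546075, minus strand), a ligand of PLXNB3, had 53.7 and 104 CPM with control siRNA and 94.1 and 101 CPM in mock in LN229. The values in U251 were 21 and 17.3 CPM with control siRNA and 24.5 and 14.5 CPM in mock. It was higher in LN229 without overlap, at 2.19 (SE 0.21, adjusted p = 1.2e-06), but only 29.1% of its exon reads were unique. On the lower side, SEMA4B (ENSG00000185033; chromosome 15, 90160604 to 90229679, plus strand) had 43.2 and 42.3 CPM with control siRNA and 36.6 and 41.5 CPM in mock in LN229. U251 libraries stood at 170.3 and 192 CPM with control siRNA and 165 and 113 CPM in mock, with a fitted log2 fold change of −1.95 (SE 0.16, adjusted p = 1.86e-07). SEMA4D (ENSG00000187764; chromosome 9, 89360787 to 89498130, minus strand), the ligand of PLXNB1, had 5.85 and 6.74 CPM with control siRNA and 8 and 5.08 CPM in mock in LN229. The U251 libraries had 22.6 and 26.4 CPM with control siRNA and 25 and 20.5 CPM in mock, with a fitted log2 fold change of −1.88 (SE 0.17, adjusted p = 5.51e-07); neither gene overlaps between the lines. SEMA7A, whose product is held by a lipid anchor and binds PLXNC1, was lower in LN229 at −1.36, as were SEMA4F at −0.54 and the scarce SEMA3F at −3.47. SEMA6B at 0.98 and SEMA4A at 1.74 were higher, SEMA4A narrowly (adjusted p = 0.0491) and with the call lost when any 1 library other than LN229 control siRNA replicate 2 was left out. SEMA3C, SEMA3G, SEMA4C, SEMA4G and SEMA6C did not pass the test; of these SEMA3C was abundant, at 229.8 ± 51.1 CPM in LN229 against 267 ± 18.4 CPM in U251 (SD over 4 control libraries).

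**Figure D3:**
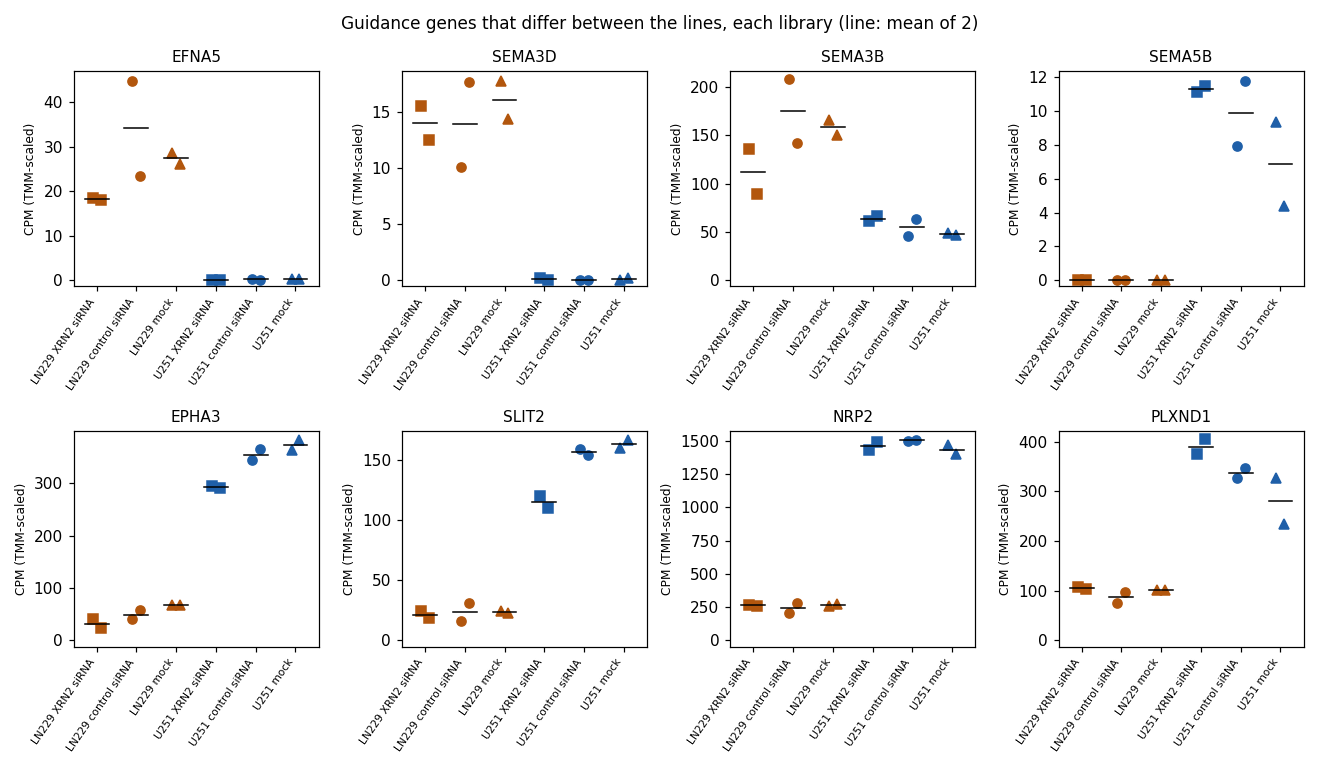
TMM-scaled CPM of 8 guidance genes in each of the 12 libraries, with XRN2 siRNA left of control siRNA and mock within each line and LN229 left of U251; the horizontal line is the mean of 2 libraries. EFNA5, SEMA3D and SEMA3B lie higher in LN229, and SEMA5B, EPHA3, SLIT2, NRP2 and PLXND1 lie higher in U251 whatever the treatment.

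Among the receptors of the semaphorins, NRP2 (ENSG00000118257; chromosome 2, 205681990 to 205798133, plus strand), a coreceptor of secreted semaphorins and of VEGF, had the largest difference relative to its error of the 49 tested genes. NRP2 stood at 206 and 284 CPM with control siRNA and 256 and 271 CPM in mock in LN229. In U251 there were 1495 and 1508 CPM with control siRNA and 1468 and 1397 CPM in mock. The libraries of a line lie close together and the lines far apart, and the log2 fold change was −2.53 (SE 0.11, adjusted p = 5.69e-10). NRP1 was lower in LN229 as well, at −0.94. PLXNA3 (ENSG00000130827; chromosome X, 154458281 to 154477779, plus strand), a receptor for SEMA3 ligands bound to neuropilins, had 21.4 and 28.6 CPM with control siRNA and 33.1 and 27.3 CPM in mock in LN229. U251 had 126 and 133 CPM with control siRNA and 109 and 128 CPM in mock, with a fitted log2 fold change of −2.17 (SE 0.14, adjusted p = 1.61e-08). PLXND1 (ENSG00000004399; chromosome 3, 129555175 to 129606818, minus strand), the receptor of SEMA3E, had 75.2 and 97.7 CPM with control siRNA and 101 and 101 CPM in mock in LN229. Its U251 values were 327 and 348 CPM with control siRNA and 327 and 235 CPM in mock, with a fitted log2 fold change of −1.72 (SE 0.12, adjusted p = 5.62e-08). For both genes the lowest U251 library is above the highest of LN229, and PLXNA2 (−1.49) and PLXNA1 (−0.50) were lower in LN229 too. PLXNB1 and PLXNB2 were higher: PLXNB1 (ENSG00000164050; chromosome 3, 48403854 to 48430051, minus strand) had 43.4 and 46 CPM with control siRNA and 56.6 and 59 CPM in mock in LN229. The values in U251 were 34.5 and 35.4 CPM with control siRNA and 31.3 and 24.9 CPM in mock. It was higher in LN229 at 0.70 (SE 0.11, adjusted p = 6.53e-05). Without the mock libraries its value was 0.35, which no longer passed (adjusted p = 0.0626). PLXNB2, the most abundant plexin of LN229, had 210.0 and 248 CPM with control siRNA and 249 and 243 CPM in mock in LN229. U251 libraries stood at 178 and 200.3 CPM with control siRNA and 177 and 170.1 CPM in mock; these do not overlap, and the log2 fold change was 0.39. PLXNB3 did not pass the test, at 159 ± 10 CPM in LN229 against 147 ± 33.9 CPM in U251, and PLXNC1, with 67.9% unique reads and a neighbour that overlaps it, was higher in LN229 at 1.95.

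SLIT2 (ENSG00000145147; chromosome 4, 20253260 to 20620561, plus strand), a secreted ligand of ROBO1, was lower in LN229. SLIT2 stood at 16.1 and 31 CPM with control siRNA and 24.2 and 22.6 CPM in mock in LN229. The U251 libraries had 159.5 and 155 CPM with control siRNA and 161 and 167 CPM in mock. All U251 values lie far above those of LN229, and the log2 fold change was −2.77 (SE 0.16, adjusted p = 7.6e-09). SLIT3 was lower in LN229 too, at −0.98. ROBO3 (ENSG00000154134; chromosome 11, 124865386 to 124881470, plus strand), known from the crossing of commissural axons, had 19.8 and 16.8 CPM with control siRNA and 14.2 and 12.9 CPM in mock in LN229. In U251 there were 4.78 and 3.7 CPM with control siRNA and 3.44 and 6.78 CPM in mock; it was low in both lines and higher in LN229 without overlap, at 1.74 (SE 0.27, adjusted p = 7.5e-05). ROBO1, which made 86.6% of the ROBO TPM in LN229 and 93.6% in U251, had 115 and 182 CPM with control siRNA and 169.8 and 186 CPM in mock in LN229. U251 had 123 and 131 CPM with control siRNA and 130.0 and 103 CPM in mock. These overlap through LN229 control siRNA replicate 1, and the log2 fold change was 0.42 (SE 0.14, adjusted p = 0.0157). It was 0.24 without LN229 control siRNA replicate 2, 0.39 without LN229 mock replicate 2, 0.34 without U251 mock replicate 2 and 0.40 without U251 control siRNA replicate 1. None of these passed (adjusted p = 0.0521 to 0.0635), nor did the value of 0.23 with control siRNA libraries alone (adjusted p = 0.33). ROBO2 and SLIT1, by contrast, had at most 8 reads over all 12 libraries.

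Intron reads, which come largely from unspliced RNA, were set beside the exon reads as a second readout of the same libraries. Of the 40 genes that differed between the lines, 34 had at least 20 intron reads in the controls, and in 31 of these the intron reads differed in the same direction; the exceptions were EPHB2, SEMA4F and PLXNA1. The control libraries did not overlap in intron reads, in that direction, for 16 of the 34. Over all 8313 genes that differed between the lines and had as many intron reads, 88.4% had the same direction and 41.7% did not overlap. NRP2 had 11.5, 27.4, 23.2, 21.4 intron RPM (intron reads scaled to a common gene read total) in LN229, control siRNA first and then mock, against 205, 163, 200.0, 145 in U251. EPHA3 had 1.36, 6.28, 7.06, 5.96 in LN229, against 31.6, 33.3, 32.5, 31.1 in U251, so that for both genes the lines were as clearly apart in introns as in exons. EFNA5 and SEMA3D had intron reads in every LN229 library and none in any U251 library.

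Promoter sequences are shown for genes with a single start in the RefSeq table (build GRCh38.p14, where 54 of the 60 genes had an entry). The choice was limited to the 10 genes each way with the smallest p in the line difference whose libraries do not overlap. Among those with a single start, the sequences are of the genes with the largest fitted difference in each direction. Each runs 5′ to 3′ on the gene's strand from 250 bases before to 50 bases after the start, and capitals mark CG dinucleotides. SEMA3D and EFNA5 were higher in LN229; SLIT2 and EPHA3 were lower.
SEMA3D (chr7:85187007-85187306, minus strand): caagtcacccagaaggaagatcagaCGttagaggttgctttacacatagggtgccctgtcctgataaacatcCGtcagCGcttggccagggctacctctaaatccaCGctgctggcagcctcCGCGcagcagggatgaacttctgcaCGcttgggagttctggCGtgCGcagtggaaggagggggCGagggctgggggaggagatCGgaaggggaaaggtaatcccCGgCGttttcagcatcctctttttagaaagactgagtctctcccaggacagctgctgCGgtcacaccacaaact
EFNA5 (chr5:107670888-107671187, minus strand): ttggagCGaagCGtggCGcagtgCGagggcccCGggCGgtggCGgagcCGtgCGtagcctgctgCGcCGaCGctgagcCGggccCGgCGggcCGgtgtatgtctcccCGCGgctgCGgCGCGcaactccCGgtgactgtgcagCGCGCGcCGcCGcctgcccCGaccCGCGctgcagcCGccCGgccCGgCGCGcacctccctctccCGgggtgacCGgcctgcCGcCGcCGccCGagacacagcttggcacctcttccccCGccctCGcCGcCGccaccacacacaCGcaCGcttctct
SLIT2 (chr4:20251655-20251954, plus strand): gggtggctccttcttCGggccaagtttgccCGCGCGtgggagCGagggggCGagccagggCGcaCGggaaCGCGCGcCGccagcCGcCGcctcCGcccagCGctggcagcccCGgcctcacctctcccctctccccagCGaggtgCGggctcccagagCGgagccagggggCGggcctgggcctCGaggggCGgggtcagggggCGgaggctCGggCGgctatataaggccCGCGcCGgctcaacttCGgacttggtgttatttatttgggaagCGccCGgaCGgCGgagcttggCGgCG
EPHA3 (chr3:89107371-89107670, plus strand): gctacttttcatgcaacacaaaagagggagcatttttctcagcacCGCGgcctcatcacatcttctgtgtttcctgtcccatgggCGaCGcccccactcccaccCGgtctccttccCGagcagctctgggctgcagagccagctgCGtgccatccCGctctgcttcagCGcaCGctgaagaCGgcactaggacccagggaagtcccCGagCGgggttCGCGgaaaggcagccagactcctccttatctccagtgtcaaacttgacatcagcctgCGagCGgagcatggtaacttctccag

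The EFNA5 window holds 47 CG dinucleotides and that of SLIT2 36, both above the upper quartile of 28 over all 35116 promoters in the table. Those of EPHA3 and SEMA3D hold 17 and 14, near the median of 14. So of the pair that was higher in LN229 one window is rich in CG and one is not, and the same holds for the pair that was lower. The letters GGGCGG, searched on both strands and present in 45% of all promoters, were found in the EFNA5 and SLIT2 windows. The letters TATAAA, on either strand, are in 11.5% of all promoters and were in none of the 4 windows. Nor were the letters CCAAT, which are in 34.6% of all promoters. The SLIT2 window does hold the similar letters TATATAAG, a string that was not searched for. These strings do not overlap each other, and the matches are of letters only. The start in the table lies 42 bases from the 5′ end that the deposited tables give for EFNA5, 97 bases for EPHA3, 201 bases for SEMA3D and 1355 bases for SLIT2, for which the table and the files therefore mark different starts.

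Genes that act with these ligands and receptors were counted in 6 lists, to be read against the 34.9% of all genes tested that were higher in LN229 and the 32.1% that were lower. Between the lines, 4 of 14 tested netrin, repulsive guidance and FLRT genes were higher and 9 lower in LN229, while of 13 coreceptors of plexins and neuropilins and VEGF genes 4 were higher and 7 lower. FLRT3, a partner of UNC5 receptors, had 117 CPM in LN229 against 6.85 CPM in U251 (mean of 4 control libraries), and NTN1, the netrin-1 gene, 25.7 CPM in LN229 against 4.24 CPM in U251. These are 2 of the 4 netrin list genes that were higher. Of the 9 that were lower, NEO1 had 1.84 CPM in LN229 against 11.3 CPM in U251. UNC5B, also lower, had 0.792 CPM in LN229 against 8.79 CPM in U251. VEGFA, whose product binds NRP1 and NRP2, had 67.9 CPM in LN229 against 797 CPM in U251, a fitted log2 fold change of −3.55 (SE 0.13, adjusted p = 9.44e-11), and MET, a partner of PLXNB1, had 88.6 CPM in LN229 against 486 CPM in U251, at −2.46 (SE 0.14, adjusted p = 5.69e-09). FLT1, a VEGF receptor, had 49.6 CPM in LN229 against 0.0404 CPM in U251. The VEGF receptor KDR went the other way, with 0.565 CPM in LN229 against 14.8 CPM in U251. Of 22 regulators of small GTPases 11 were higher and 7 lower, and of 33 GTPases, kinases and adaptors 8 were higher and 15 lower. Of 23 cytoskeletal effectors 5 were higher and 13 lower, and of 14 genes of shedding and turnover 2 were higher and 9 lower. The share called either way ran from 69.7% for the GTPases, kinases and adaptors to 92.9% for the netrin list, against 67.0% of all genes. NGEF, the exchange factor ephexin that is bound by EPHA4, had 13.9 CPM in LN229 against 0.384 CPM in U251, and ABLIM1, an actin-binding protein, had 11.4 CPM in LN229 against 163 CPM in U251. The median log2 fold change was 0.48 for the GTPase regulators and between −0.22 and −0.72 for the other 5 lists, against 0.03 over all genes tested.

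In LN229, 2 plexin genes were higher with XRN2 siRNA than with control siRNA. Against control siRNA, PLXNB3 and PLXNB1 rose and no guidance gene fell, 2 of 49 on a background of 3.16% of all genes tested (1.21% higher, 1.95% lower). PLXNB3 (ENSG00000198753; chromosome X, 153764196 to 153779346, plus strand), which encodes the receptor of SEMA5A, stood at 241 and 332 CPM with XRN2 siRNA, 147 and 155 CPM with control siRNA and 163 and 169.9 CPM in mock. Both XRN2 siRNA libraries lie above all 4 others, with replicate 2 well above replicate 1. The log2 fold change was 0.92 (SE 0.19, adjusted p = 0.0259) against control siRNA and 0.78 (SE 0.19, adjusted p = 0.0587) against mock, which did not pass. Over the alternative settings listed below, PLXNB3 passed against mock in 11 and did not in 10. Against control siRNA it passed in 15 and did not in 8. Of its exon reads 82.1% were unique. PLXNB1, the receptor of SEMA4D, stood at 66.2 and 78.7 CPM with XRN2 siRNA, 43.4 and 46 CPM with control siRNA and 56.6 and 59 CPM in mock. Its XRN2 siRNA libraries are also the highest, but mock lies between them and control siRNA. The log2 fold change was 0.69 (SE 0.15, adjusted p = 0.0271) against control siRNA and 0.32 (SE 0.14, adjusted p = 0.276) against mock. The comparisons against control siRNA and against mock share the XRN2 siRNA libraries.

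LN229 control siRNA replicate 1, in which long transcripts were low, is one of the 2 libraries behind the first of these comparisons. Without it the log2 fold change of PLXNB3 was 0.91 (adjusted p = 0.101) and that of PLXNB1 0.68 (adjusted p = 0.0791), and no guidance gene passed. With a trend on exon length taken out, PLXNB3 came to 0.76 (adjusted p = 0.0265) and PLXNB1 to 0.44 (adjusted p = 0.0812). The balance of the calls turned with it, to 1 higher and 4 lower, where 7.03% of all genes were called. The 4 that were lower were EPHB4 at −0.62 (adjusted p = 0.016), EPHB2 at −0.65 (adjusted p = 0.0178), the neuropilin NRP1 at −0.60 (adjusted p = 0.038) and EPHA3 at −0.76 (adjusted p = 0.0438). Reads of EPHB4 cannot be separated from those of SLC12A9, which overlaps it on the opposite strand. Without XRN2 siRNA replicate 2 PLXNB3 came to 0.68 (adjusted p = 0.334) and PLXNB1 to 0.57 (adjusted p = 0.314). Both values were at 0.92 and 0.69 without either mock library of LN229 or either U251 XRN2 siRNA library, with adjusted p between 0.0531 and 0.0619, so that neither gene passed there. PLXNB1 was also lost without either U251 control siRNA library, where its largest adjusted p was 0.0606. Intron reads of PLXNB3 in LN229 were 39.6 and 52.8 RPM with XRN2 siRNA, 17.5 and 29.9 with control siRNA and 34.7 and 28 in mock. The XRN2 siRNA libraries were highest there too. Intron reads of PLXNB1 in LN229 were 7.27 and 9.49 RPM with XRN2 siRNA. They were 4.09 and 6.44 with control siRNA and 8.44 and 6.33 in mock, so XRN2 siRNA and mock overlap.

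Against mock, EPHA3 fell in LN229 and was the only guidance gene called, 1 of 49 on a background of 1.29% (0.548% higher, 0.738% lower). It stood at 40.3 and 23 CPM with XRN2 siRNA, 40.9 and 57.3 CPM with control siRNA and 67.5 and 66.6 CPM in mock, so that control siRNA replicate 1 is nearly level with XRN2 siRNA replicate 1. The log2 fold change was −1.07 (SE 0.22, adjusted p = 0.037) against mock and −0.63 (SE 0.22, adjusted p = 0.128) against control siRNA, which did not pass. Without XRN2 siRNA replicate 2 the value against mock was −0.73 (adjusted p = 0.426), without mock replicate 1 it was −1.07 (adjusted p = 0.287) and without mock replicate 2 −1.09 (adjusted p = 0.198). Without either U251 control siRNA library or either U251 XRN2 siRNA library, which enter through the shared estimate of the spread, it was −1.08, with adjusted p between 0.073 and 0.0746. In U251 the gene had 295 and 291 CPM with XRN2 siRNA, 345 and 364 CPM with control siRNA and 364 and 382 CPM in mock; the XRN2 siRNA libraries are the lowest there, but the log2 fold changes of −0.28 against control siRNA and −0.35 against mock did not pass. Intron reads of EPHA3 in LN229 were 5.25 and 6.09 RPM with XRN2 siRNA. They were 1.36 and 6.28 with control siRNA and 7.06 and 5.96 in mock, so the groups overlap. With a trend on exon length taken out in edgeR, EPHA3 at −1.11 (adjusted p = 0.0158) passed against mock in LN229. So did PLXNB3 at 0.73 (adjusted p = 0.0381) and EPHB4 at −0.47 (adjusted p = 0.0479). These genes passed against control siRNA too with that trend taken out.

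**Figure D4:**
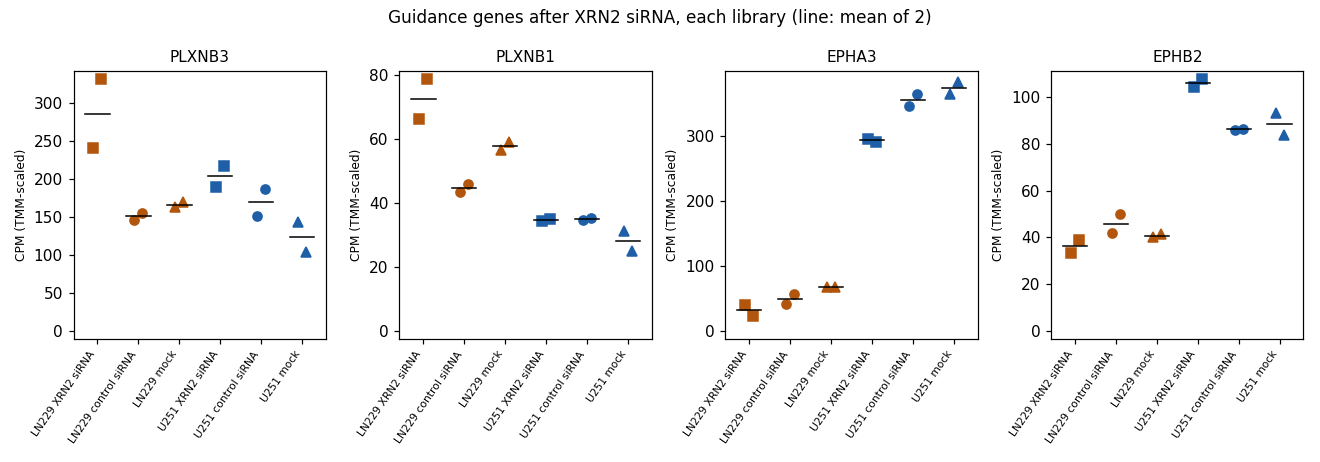
TMM-scaled CPM of PLXNB3, PLXNB1, EPHA3 and EPHB2 in each of the 12 libraries, with XRN2 siRNA left of control siRNA and mock within each line; the horizontal line is the mean of 2 libraries. In LN229 PLXNB3 reaches 241 and 332 CPM with XRN2 siRNA, above all 4 control siRNA and mock libraries, and EPHB2 lies below its controls in LN229 and above them in U251.

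The LN229 libraries were also set side by side without a test. The XRN2 siRNA libraries were wholly above these for 11 of 49 guidance genes and wholly below for 11, against 16.0% and 16.9% of all genes tested. Those above were 5 plexins (PLXNA3, PLXNB1, PLXNB2, PLXNB3 and PLXND1), 5 semaphorins (SEMA3F, SEMA4A, SEMA4B, SEMA4C and SEMA7A) and ROBO1. Those below were the ephrins EFNA5, EFNB1, EFNB2 and EFNB3, the receptors EPHA3, EPHB2, EPHB3 and EPHB4, and SEMA3B, SEMA4D and SEMA6B. Few reads lie behind SEMA3F (0.543 and 0.701 CPM with XRN2 siRNA) and EFNB3 (0.678 and 0.701 CPM). The floors of these 2 libraries are 0.407 and 0.526 CPM. SEMA4B, which had 54.3 and 88.4 CPM with XRN2 siRNA, 43.2 and 42.3 CPM with control siRNA and 36.6 and 41.5 CPM in mock, gave a fitted log2 fold change of 0.73 (SE 0.23, adjusted p = 0.0852) against control siRNA, and EPHB4, with 48.3 and 47.3 CPM with XRN2 siRNA, 65.6 and 67.5 CPM with control siRNA and 61.9 and 66.2 CPM in mock, gave −0.48 (SE 0.13, adjusted p = 0.0553). EFNA5, with 18.5 and 17.9 CPM with XRN2 siRNA, 44.8 and 23.4 CPM with control siRNA and 28.6 and 26.1 CPM in mock, gave −0.90 (SE 0.28, adjusted p = 0.092). The median log2 fold change was 0.49 against control siRNA and 0.25 against mock over the 8 tested plexins, 0.39 and 0.25 over the 20 semaphorins and −0.34 and −0.29 over the 7 ephrins. Over all genes tested it was 0 in both. Control siRNA itself against mock gave a median of −0.18 for the plexins, −0.07 for the semaphorins and 0.10 for the ephrins. Of the genes in these families, PLXNB3 and PLXNB1 passed, against control siRNA. The tested guidance genes had a median exon length of 6956 bases, against 4876.5 over all genes tested, and log2 fold change against control siRNA was higher for longer exon length over all genes in LN229 (Spearman 0.262; 0.00823 against mock). With the length trend taken out, the medians against control siRNA were 0.27 for the plexins, 0.23 for the semaphorins and −0.38 for the ephrins, against −0.09 over all genes tested.

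In U251 no guidance gene passed against control siRNA, where 0.00703% of all genes tested were called, and none against mock, where 0.0492% were (0.0422% higher). At an unadjusted p under 0.05, edgeR gave 1 of 49 guidance genes against control siRNA, where 3.89% of all genes were under it, and 7 against mock, where 10.7% were. DESeq2 called none in either comparison, and limma-voom called 1 against control siRNA, SLIT2, where it called 0.836% of all genes, and none against mock. SLIT2 stood at 120.1 and 111 CPM with XRN2 siRNA, 159.5 and 155 CPM with control siRNA and 161 and 167 CPM in mock, with a fitted log2 fold change of −0.45 (SE 0.21, adjusted p = 1) against control siRNA and −0.51 (SE 0.21, adjusted p = 0.424) against mock in edgeR. The XRN2 siRNA libraries are the lowest for SLIT2, and they were wholly below the 4 others for 6 of 49 genes and wholly above for 9, against 10.6% and 13.8% of all genes. PLXNB3 had 190.3 and 218 CPM with XRN2 siRNA, 152 and 187 CPM with control siRNA and 143 and 104 CPM in mock and gave 0.27 (SE 0.19, adjusted p = 1) against control siRNA and 0.72 (SE 0.19, adjusted p = 0.283) against mock. Its XRN2 siRNA libraries are the highest, and mock replicate 2, which stands apart from its replicate, is the lowest. PLXNB1 gave −0.01 against control siRNA and 0.31 against mock.

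The effect of XRN2 siRNA against control siRNA was also compared between the lines. No guidance gene passed this test of the difference and no gene of all 14232 did (0%). DESeq2 and limma-voom called no guidance gene either. At an unadjusted p under 0.05 there were 9 of 49 in edgeR, where 6.64% of all genes were under it. The difference, LN229 minus U251, was 0.65 (SE 0.27, adjusted p = 0.732) for PLXNB3, 0.71 (SE 0.21, adjusted p = 0.683) for PLXNB1 and −0.35 (SE 0.30, adjusted p = 0.807) for EPHA3. None of these effects is shown to differ between the lines. Control siRNA against mock gave no called guidance gene in either line by edgeR, DESeq2 or limma-voom (0% of all genes in edgeR). At an unadjusted p under 0.05 edgeR gave 2 in LN229 and 5 in U251, where 4.55% of all genes in LN229 and 4.79% in U251 were under it. Of the 6 lists of genes that act with the guidance genes, XRN2 siRNA gave calls in LN229 against control siRNA alone. They were 1 of 22 tested GTPase regulators and 1 of 14 genes of shedding and turnover, where 3.16% of all genes were called. SIPA1L1, a Rap inactivator, came to 0.78 (SE 0.15, adjusted p = 0.0188). It had 90.2 CPM with XRN2 siRNA, 52.4 CPM with control siRNA and 66 CPM in mock (means of 2 libraries). CBLB, a ubiquitin ligase, came to 1.19 (SE 0.27, adjusted p = 0.0358). Its means were 37.6, 16.3 and 19.8 CPM in the same order. Neither gene passed against mock.

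**Figure D5:**
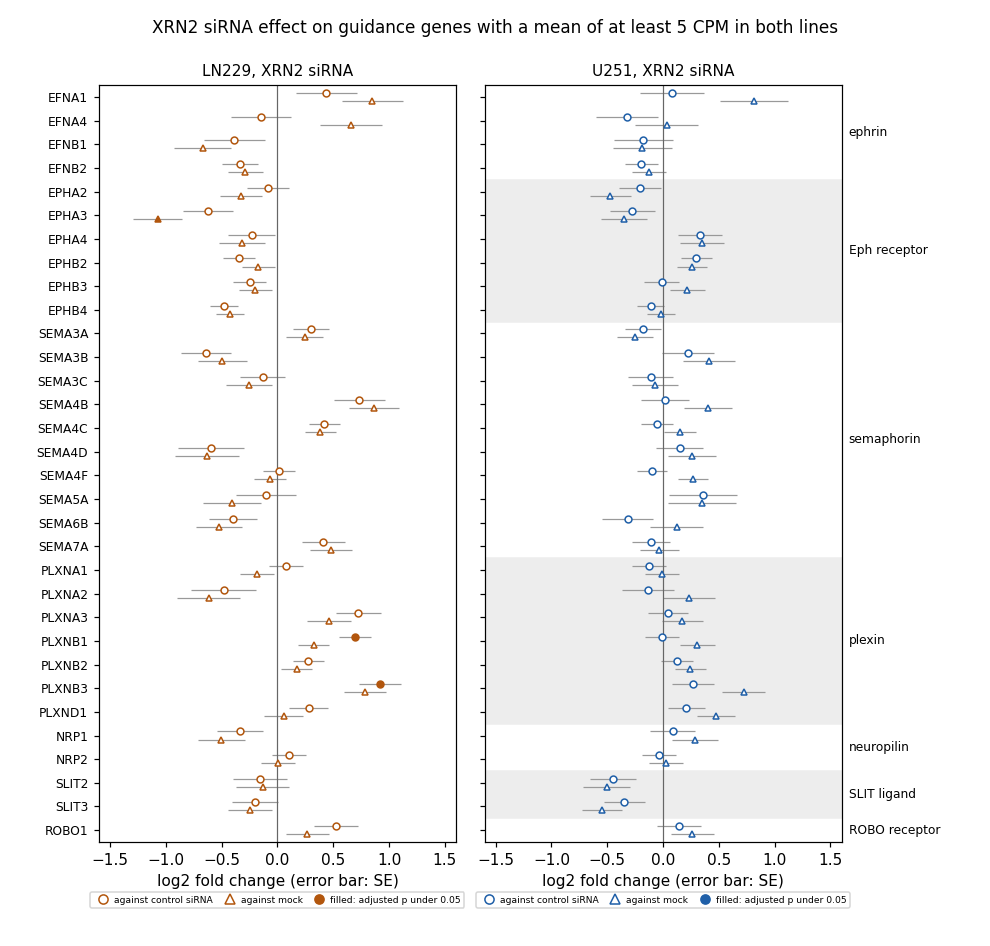
Fitted log2 fold change (error bar, SE) of XRN2 siRNA against control siRNA (circles) and against mock (triangles) in LN229 (left) and U251 (right) for the 32 tested guidance genes with a mean of at least 5 CPM in both lines. Filled points passed the test: PLXNB1 and PLXNB3 against control siRNA and EPHA3 against mock, all in LN229.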

How the data were processed

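Per the labels' protocols, RNA was extracted with a column kit and sequenced on a MiSeq after library preparation with the TruSeq RNA v2 kit, a poly(A) kit that does not mark the strand, so that reads of overlapping genes cannot be separated. For each library the authors deposited whole-number read counts per gene (total and unique exon reads, intron reads), per the file headers. Deposited TPM values stand beside them, per the file headers, and were used to compare levels between genes; deposited RPKM values were not used. GRCh37 and hg19 are named in the submitters' processing notes. However, 96.8% of 57836 shared gene identifiers have their GENCODE release 29 positions, so the coordinates are those of GRCh38. Aligner, counter and the handling of reads with several matches: not given in the sources used here.

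Total exon read counts were filtered with filterByExpr (minimum count 10, minimum total 15), which kept 14232 genes. They were TMM-scaled and fitted with 1 mean per group over all 12 libraries (6 residual degrees of freedom) in edgeR 4.0.16 under R 4.3.3, with robust quasi-likelihood F-tests and Benjamini-Hochberg adjustment over all genes kept at 0.05. Fold changes are fitted log2 values, and CPM are TMM-scaled. SE is the absolute fitted log2 fold change divided by the square root of the F statistic, not a standard error from the fit. For genes read almost only in one line it understates the uncertainty, and the counting intervals are the better guide. The line difference is the mean of mock and control siRNA in LN229 minus that in U251. On simulated counts of the LN229 comparison with control siRNA (13814 genes), the test recovered 25 of 50 genes at a 2-fold change and 40 of 50 at a 3-fold change, with 10 false calls. Apart from the changes put in, those counts had 1 mean per gene over all groups, without a line difference or a length trend. Intron RPM are relative to all gene reads, and ratios of read sums have exact conditional 95% intervals that cover counting error only. Values are named for the 3 genes with the highest TPM in each line, in the line difference the 10 genes each way with the smallest p whose libraries do not overlap, and every gene called with XRN2 siRNA; other genes are named within their family. The genes and lists were chosen with earlier results of these data known. HJV and RGS5 had no match in the tables. Alternatives were DESeq2 1.42.0, its size factors, other filters, unique reads, an exon length trend, limma-voom (limma 3.58.1), a replicate block, other control or library sets and each library left out.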

Additional observations from a re-analysis of the deposited data

Results flagged for a closer look

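EPHB2, which encodes a receptor of B-class ephrins, had XRN2 siRNA libraries on opposite sides of their controls in the 2 lines. In LN229 it had 33.5 and 39.1 CPM with XRN2 siRNA, 41.8 and 50 CPM with control siRNA and 40.2 and 41.4 CPM in mock, so both XRN2 siRNA libraries lie below the other 4. In U251 it had 105 and 108 CPM with XRN2 siRNA, 86 and 86.7 CPM with control siRNA and 93.5 and 84.1 CPM in mock, so both lie above. The log2 effect against control siRNA was −0.34 in LN229 and 0.30 in U251, neither of which passed, and the difference of −0.64 between these effects did not pass either (edgeR, tested as an interaction, adjusted p = 0.683). With a trend on exon length taken out, the effect against control siRNA in LN229 was −0.65 and passed (adjusted p = 0.0178), and that against mock, −0.23, did not (adjusted p = 0.378). EPHB2 was 1 of 49 tested guidance genes with libraries on opposite sides, a pattern that 1.19% of all genes tested had.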

How the results depend on the processing

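In the line difference, between 35 and 41 guidance genes were called over 23 alternatives. The main setting called 40, with 67.0% of all genes. Of 459 values for the 20 genes chosen by p (10 each way), 458 kept their direction and side of the threshold. The exception was PLXNB1 with control siRNA alone (0.35). Of the other 20 called genes, SEMA4A lost its call in 18 of the 23, EFNA1 in 14, ROBO1 in 5, EPHB4 and EFNA3 in 2 each, and PLXNB2, PLXNA1, SEMA3F and SEMA4F in 1 each. The knockdown counts did not hold in this way. Against control siRNA in LN229, where 2 genes were called, with 3.16% of all genes, DESeq2 called 4 (7.45% of all genes), no filter on low counts gave 9 (6.6%), an exon length trend 5 (7.03%; 1 higher and 4 lower), limma-voom 0 (0.0141%), the LN229 libraries alone 0 (0.00749%) and control siRNA with mock as the control 5 (5.74%). Leaving out each library gave 0 to 9: 0 without control siRNA replicate 1, either mock library, XRN2 siRNA replicate 2 or either U251 XRN2 siRNA library, 1 without either U251 control siRNA library, 6 without XRN2 siRNA replicate 1 (5.67% of all genes) and 9 without control siRNA replicate 2 (22.5%). Against mock in LN229, where 1 was called with 1.29% of all genes, DESeq2 gave 3 (3.43%), no filter 6 (4.37%), unique reads 2 (1.77%), the length trend 3 (3.82%) and limma-voom 6 (8.2%), and leaving out each library gave 0 to 4. Without LN229 control siRNA replicate 1 and U251 mock replicate 2 together, a setting chosen after seeing the data, the counts were 7 (3.72%) and 8 (10.8%). In U251, where none were called, limma-voom gave 1 against control siRNA and no filter gave 2 against mock (2.14%); leaving out each library gave 0 to 3 against mock, the 3 without mock replicate 1 (5.23%). Leaving out each library gave 0 to 2 for the difference between lines and 0 to 3 for control siRNA against mock in LN229, the highest in both without LN229 control siRNA replicate 2 (7.6% and 13% of all genes). The cause of these changes was not tested. Where a count stands without the share of all genes, it cannot be read as particular to the guidance genes. The replicate numbers paired no samples (correlations −0.0676 to 0.0963); with a replicate block 38 genes were called between the lines, 2 and 1 in LN229 and 0 in U251. With 2 libraries a group, 25 of 50 simulated 2-fold changes were called in the LN229 comparison with control siRNA, so changes of that size can be missed. The simulated counts carried no length trend, so the share missed in the real libraries may differ.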
